A study of Mus musculus with 6 samples.

Results

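The fucosyltransferases are the enzymes that attach fucose to glycans and to proteins. The family was taken as 10 genes, Fut1, Fut2, Fut4, Fut7, Fut8, Fut9, Fut10, Fut11, Pofut1 and Pofut2, chosen by their symbols among the 34866 genes of the deposited table. Of these 10 genes, 8 had enough counts to be among the 14017 genes tested, and Fut1 and Fut7 did not. Libraries of antral mucosa, from the end of the stomach nearest the intestine, were made from total RNA with a kit that selects polyadenylated transcripts. There were 3 wild type libraries (Muc6 +/+) and 3 Muc6 knockout libraries (Muc6 -/-), and the 2 groups differed in no other labelled condition. The design compared the genotypes to examine how Muc6, the mucin secreted by gland mucous cells, relates to gastric tumour formation. The sources used here do not give age, strain or the nature of the disrupted allele, nor say that replicates were separate animals. Each p-value therefore sets the difference between the groups against the spread among these libraries only, and that spread may be technical.

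Fucose is donated by GDP-fucose, which is made in the cytosol and carried into the Golgi and the endoplasmic reticulum. In the stomach, FUT2 adds the alpha-1,2-linked fucose of the H antigen to the surface mucins, and alpha-1,3 enzymes such as FUT4, FUT7 and FUT9 make the Lewis x and sialyl-Lewis x structures. FUT8 places the alpha-1,6-linked core fucose on N-glycans. POFUT1 and POFUT2 work in the endoplasmic reticulum and link fucose directly to folded protein domains, POFUT1 to the epidermal growth factor-like repeats of Notch receptors and POFUT2 to thrombospondin type 1 repeats. FUT10 and FUT11 are divergent relatives that reside in the endoplasmic reticulum.

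Total counts lay between 19839799 and 21354029 per library, so 1 count was worth 0.0415 to 0.0579 CPM (counts per 1e+06 of the scaled library size). The target gene followed the labels, with Muc6 at 396, 402 and 510 CPM in the wild type and at 0.0424, 0 and 0 CPM in the knockout. The 20 most abundant genes held 29.4% to 31.5% of wild type counts and 19.5% to 19.8% of knockout counts. Values below use trimmed mean of M-values (TMM) scaling, which offsets this difference. Scaling by total counts alone moved the median log2 fold change of all genes tested by 0.416, from 0.02 to 0.43, so a total-count value of 0.43 stands at that median. The Y-linked genes Ddx3y and Eif2s3y were at 39.2 to 41.1 and 46.8 to 53.5 CPM in the knockout libraries and at no more than 0.326 and 0.706 CPM in the wild type, so sex coincided with genotype and the effects of sex and genotype cannot be told apart. Because the tissue was sequenced in bulk, fewer cells of a type and less RNA per cell cannot be told apart either.

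Of the 8 members tested, 2 rose in the knockout (Pofut1 and Pofut2) and 2 fell (Fut4 and Fut8), by edgeR's quasi-likelihood test at a Benjamini-Hochberg false discovery rate of 0.05 over all genes tested. The remaining 4, Fut2, Fut9, Fut10 and Fut11, did not pass. Across all genes tested 38.4% were called, 19.3% higher and 19.2% lower, so 4 called of 8 is near the background and is not by itself a feature of the family. The median log2 fold change of the 8 members was -0.02 and that of all genes tested was 0.02. In 5 members the CPM values of the genotypes did not overlap, against 54.8% of all genes tested. Total-count scaling called 3 members higher, Fut2 being the third, and 2 lower, where it called 40.8% of all genes higher and 7.81% lower.

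**Figure D1:**
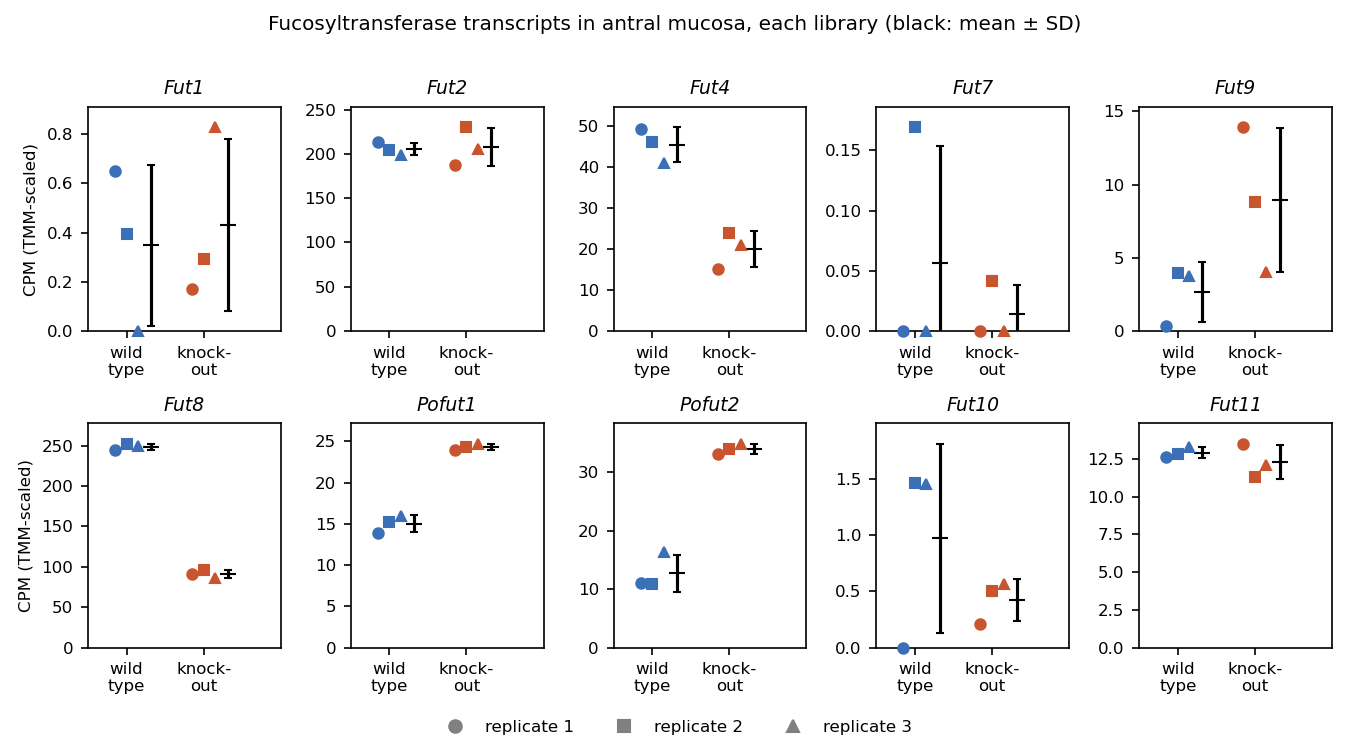
Each panel plots 1 fucosyltransferase, with TMM-scaled CPM on the vertical axis, a point for each of the 3 wild type and 3 knockout libraries, a black tick for the group mean and whiskers for 1 SD, ended at 0 where they would pass below it. Fut8 lies at 245 to 252 CPM in the wild type and 85.7 to 95.4 CPM in the knockout, Pofut2 at 10.8 to 16.3 and 33.2 to 34.9 CPM, while the groups overlap for Fut2.

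To compare genes with each other, counts were divided by exon length and scaled to 1e+06 per library. On this per-length scale, which is not TMM-scaled, Fut2 had the highest level in the wild type (56.0 ± 2.57, mean ± SD, n = 3), followed by Fut8 (46.6 ± 0.467), Fut4 (16.6 ± 1.74) and Fut11 (4.48 ± 0.0752). The order of Fut2 and Fut8 depends on the length used: with that of the longest transcript, Fut8 held 43.0%, 44.5% and 44.8% of the family in the wild type libraries and Fut1 and Fut2 together 45.0%, 43.3% and 43.0%, so neither was the higher in all 3. Pofut2 (2.38 ± 0.557) and Pofut1 (2.24 ± 0.129) came next, and their libraries overlapped. The longest Pofut1 transcript has 5600 bases, against 9912 in all its exons, so the place of Pofut1 also depends on the length used. With the longest transcript Pofut1 stood above Pofut2 in every wild type library and above Fut11 in every knockout library. Fut9 and Fut10 shared a mean of 0.285, Fut1 was at 0.187 ± 0.177, and Fut7 was at 0 in all but 1 library. These last 4 genes did not separate beyond their spread. In the knockout the order was Fut2 (91.7 ± 9.32), Fut8 (27.5 ± 1.75), Fut4 (11.8 ± 2.57), Pofut2 (10.3 ± 0.121), Fut11 (6.94 ± 0.679), Pofut1 (5.89 ± 0.00813) and Fut9 (1.56 ± 0.876), with Fut1, Fut10 and Fut7 at 0.367, 0.203 and 0.0141. Pofut2 stood above Fut11 in every knockout library and below it in every wild type library, and its range in the knockout, 10.2 to 10.5, lay inside that of Fut4, 9.05 to 14.2.

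Fut8, the only enzyme known to make core fucose, lies on chromosome 12 (chr12:77238125-77476338, mm10, plus strand). Its level was 245, 252 and 249 CPM in the wild type libraries and 91.1, 95.4 and 85.7 CPM in the knockout libraries. The wild type values were close together and all stood well above the knockout values. Fut8 fell by 1.46 on the log2 scale (SE 0.09, 95% interval -1.67 to -1.24, edgeR adjusted p = 1.64e-04), a level 2.74-fold higher in the wild type, and it ranked 47 by p among all genes tested. With total-count scaling the log2 fold change was -1.04 (edgeR adjusted p = 3.44e-04). Stretches of at least 75 bases at 95% identity or more to the Fut8 transcripts occur in transcripts of 118 other genes, so part of its reads could have been split between genes by the counting. No other member shared such a stretch.

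The alpha-1,3 enzyme gene Fut4 (chr9:14748320-14752393, minus strand), whose product makes Lewis x and is also made by leukocytes, was at 49.4, 46.2 and 41.0 CPM in the wild type and at 15.2, 24.0 and 21.0 CPM in the knockout. The highest knockout library was far below the lowest wild type library. Fut4 fell by 1.18 (SE 0.18, 95% interval -1.60 to -0.76, edgeR adjusted p = 0.00261), which is a 2.27-fold lower level. Its change was -0.76 with total counts (edgeR adjusted p = 0.0114). The fall of Fut4 and of Fut8 was measured in libraries in which all 6 markers of pit mucous cells were lower in the knockout than in any wild type library. These markers (Muc5ac, Gkn1, Gkn2, Tff1, Capn8 and Psca) summed to 160550 to 186811 CPM in the wild type and 37727 to 48758 CPM in the knockout, and none was at 0. All 7 enteroendocrine markers were likewise below every wild type library, with sums of 1480 to 2002 and 55.3 to 356 CPM. So were 5 of 6 parietal and chief cell markers, with sums of 130 to 540 and 11.9 to 78.8 CPM and Kcne2 at 0 in 1 knockout library. By the test, 6 of 6 pit, 4 of 7 enteroendocrine and 4 of 6 parietal and chief cell markers were lower. Among all genes tested, 54.8% did not overlap between genotypes and 19.2% were called lower. The part of any of these cells in the lower Fut4 and Fut8 was not tested.

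The other alpha-1,3 genes were rare. Fut9 (chr4:25609332-25800244, minus strand), which makes Lewis x in the stomach and the brain, was at 0.326, 3.93 and 3.77 CPM in the wild type and 13.9, 8.84 and 4.05 CPM in the knockout. The groups did not overlap, but the highest wild type and lowest knockout values were nearly equal. Its log2 fold change of 1.74 (SE 0.86, 95% interval -0.35 to 3.83) did not pass the test (edgeR adjusted p = 0.159). DESeq2 gave the same log2 value with an adjusted p of 0.0469, the range of adjusted p over the alternatives being 0.0469 to 0.325, and without both libraries numbered 1 the edgeR log2 value was 0.72 (adjusted p = 0.155). Fut7 (chr2:25423267-25426374, plus strand), the leukocyte enzyme of sialyl-Lewis x, had 3 counts in the wild type, all in 1 library, and 1 in the knockout. The ratio of the summed counts, knockout over wild type, was 0.253 with a 95% counting interval of 0.00481 to 3.14, so no difference was detectable at this depth. The leukocyte markers were Ptprc, Cd3e, Cd79a, Jchain, Csf1r, Cd68, Itgam and Laptm5. They summed to 4.40 to 18.7 CPM in the wild type and 74.2 to 129 CPM in the knockout. In 7 of 8, every knockout library was above any wild type library, where 54.8% of all genes tested did not overlap. Of the 7 leukocyte markers tested, 4 passed. Most of the knockout sum was Jchain, a plasma cell gene (75.8, 40.0 and 91.5 CPM), while the T cell gene Cd3e stayed at or below 0.212 CPM. Neutrophil markers summed to no more than 1.04 CPM in the wild type and to 163, 3.36 and 4.49 CPM in the knockout. In these same knockout libraries Fut7 had its single count.

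Fut2 and Fut1 lie near each other on chromosome 7 (chr7:45648591-45666394, minus strand, and chr7:45617289-45621059, plus strand), with other genes between them. Fut2, the main alpha-1,2 enzyme of mucous epithelia, was at 213, 204 and 199 CPM in the wild type and 187, 230 and 206 CPM in the knockout. The knockout libraries spanned the wild type ones. The log2 fold change was 0.02 (SE 0.11, edgeR adjusted p = 0.913), and its 95% interval of -0.24 to 0.27 bounds the difference. Its sign turned with small changes of the fit, and with total-count scaling the value was 0.43 (SE 0.11, edgeR adjusted p = 0.0151, range over the alternatives 0.0151 to 0.960), equal to the median of all genes tested on that scale. Fut1 had 12, 7 and 0 counts in the wild type and 4, 7 and 19 in the knockout. Its summed counts, 19 and 30, gave a ratio of 1.20 (95% counting interval 0.652 to 2.25), which does not show a difference.

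Ratios between members do not depend on the scaling of the libraries. Fut2 had 0.868, 0.808 and 0.799 counts for each count of Fut8 in the wild type and 2.05, 2.41 and 2.41 in the knockout. The ratio was 2.78-fold higher in the knockout, with an exact two-sided permutation p of 0.1, the smallest that 3 against 3 libraries can give. Fut2 counts per Fut4 count were likewise higher in every knockout library, at 10.6 ± 1.51 against 4.53 ± 0.294 in the wild type (SD, n = 3, exact permutation p = 0.1). The 2 genes that fell kept overlapping ratios, with Fut8 at 5.50 ± 0.561 counts per Fut4 count in the wild type and 4.68 ± 1.14 in the knockout (exact permutation p = 0.3).

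**Figure D2:**
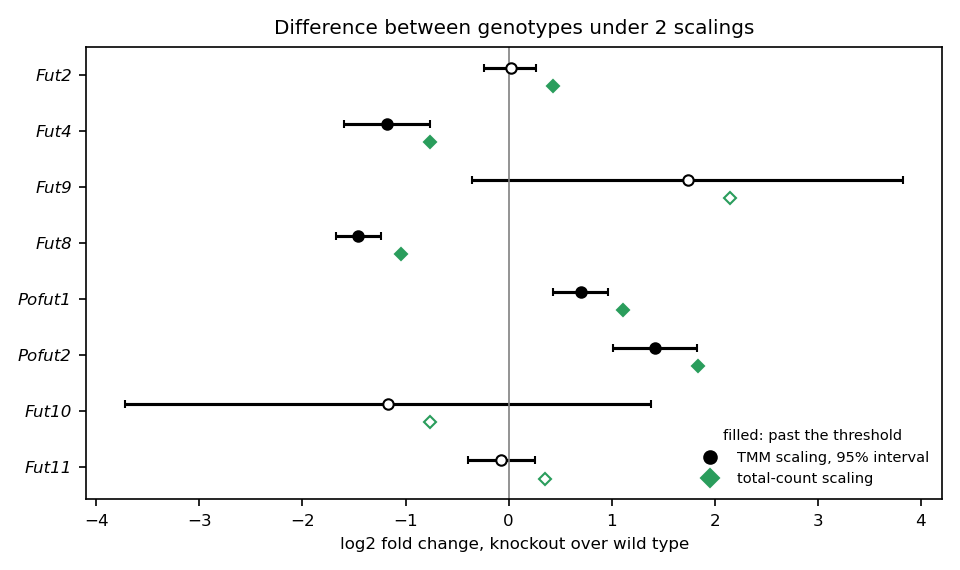
The plot gives the log2 fold change, knockout over wild type, of the 8 tested members as circles with 95% intervals under TMM scaling and as diamonds under total-count scaling, filled where past the threshold. Fut8 and Fut4 lie below 0 and Pofut1 and Pofut2 above 0 under either scaling, whereas Fut2 moves from 0.02 to 0.43 and Fut11 from -0.07 to 0.35.

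Pofut2 (chr10:77259218-77269575, plus strand), the enzyme for thrombospondin repeats, was at 11.0, 10.8 and 16.3 CPM in the wild type and 33.2, 34.0 and 34.9 CPM in the knockout. Every knockout library stood above every wild type library, and 1 wild type library was higher than the other two. Pofut2 rose by 1.42 (SE 0.18, 95% interval 1.01 to 1.83, edgeR adjusted p = 0.00124), or 2.68-fold. Pofut1 (chr2:153241533-153270247, plus strand), the enzyme for Notch receptors, was at 13.9, 15.2 and 16.0 CPM in the wild type and 24.0, 24.3 and 24.7 CPM in the knockout. The knockout libraries were nearly equal and all above the wild type. Pofut1 rose by 0.70 (SE 0.12, 95% interval 0.43 to 0.97, edgeR adjusted p = 0.00365), or 1.62-fold. With total-count scaling the log2 fold changes were 1.84 for Pofut2 and 1.11 for Pofut1. The libraries in which they rose also had higher sums of several marker lists. Gland mucous markers summed to 7373 to 9344 CPM in the wild type and 14186 to 22048 CPM in the knockout. Tff2, Aqp5, Glipr1 and Bpifb1 were above every wild type library, Gkn3 overlapped and Muc6, the disrupted gene, was at or near 0. For comparison, 54.8% of all genes tested did not overlap between genotypes. Squamous markers summed to 4.17 to 8.52 and 16.3 to 87.3 CPM, and the leukocyte and endothelial sums are given with Fut7 and the Notch genes. The part of these cells in the higher Pofut1 and Pofut2 was not tested. Pofut2 had 0.841 ± 0.158 counts per Pofut1 count in the wild type and 1.40 ± 0.0144 in the knockout (exact permutation p = 0.1).

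The promoter table held windows for 7 of the 10 members (RefSeq, GRCm38.p6), and Fut2, Fut9 and Fut10 had no entry. The bases just upstream of the start of the 2 genes that rose and of Fut8 are shown because these members moved in opposite directions. Each is written 5′ to 3′ on the strand of its gene, without bases inside exons of that gene or of protein-coding neighbours. Capitals mark a GC box (GGGCGG) or a CCAAT box (CCAAT) on either strand, and neighbouring boxes may overlap.
Pofut1: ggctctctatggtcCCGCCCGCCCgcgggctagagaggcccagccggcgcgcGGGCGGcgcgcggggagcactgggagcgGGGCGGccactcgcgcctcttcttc
Pofut2: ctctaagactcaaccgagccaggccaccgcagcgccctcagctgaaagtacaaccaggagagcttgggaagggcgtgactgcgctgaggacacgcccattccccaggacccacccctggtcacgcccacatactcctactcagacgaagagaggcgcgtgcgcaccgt
Fut8: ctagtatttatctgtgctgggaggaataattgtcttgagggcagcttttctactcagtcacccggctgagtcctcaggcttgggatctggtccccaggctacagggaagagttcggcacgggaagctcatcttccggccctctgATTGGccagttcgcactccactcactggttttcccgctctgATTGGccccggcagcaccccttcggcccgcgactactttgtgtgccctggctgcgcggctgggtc
The Pofut1 stretch (chr2:153241427-153241531, plus strand, 105 bases) had 79% G and C, 16 CpG dinucleotides and 4 GC boxes. It ends at its 5′ side where Plagl2, a zinc finger gene transcribed the opposite way, begins, and Plagl2 also rose, by 0.63 (SE 0.15, edgeR adjusted p = 0.0144). Among all genes tested, 19.3% were called higher. The other protein-coding neighbours of members that were tested, Abca2, Sec24c and Chchd1, did not pass (edgeR adjusted p = 0.0533, 0.361 and 0.0616). The Pofut2 stretch (chr10:77259050-77259217, plus strand, 168 bases) had 12 CpG and neither box, and lies within Gm10941, a non-coding gene on the opposite strand that shares 6 exon bases with Pofut2. The Fut8 stretch (chr12:77237854-77238103, plus strand, 250 bases) had 2 CCAAT boxes on the opposite strand, 106 and 65 bases before the start site. It lies within another opposite non-coding gene, 9530018F02Rik, which shares 75 exon bases with Fut8. These 2 non-coding genes were not analysed here, and without knowing whether counting used the strand, reads from the shared bases cannot be told apart. In the full windows, from 250 bases before to 50 after the start, GC boxes occurred in 6 of the 7 members and in 35.7% of 32851 promoters. CCAAT boxes occurred in 3 of 7 and in 37.4%. The Pofut2 window had a GC box 39 bases before its RefSeq start site, and the Fut8 window had a GC box at position 4 from its start site. Both of these boxes lie outside the stretches shown. None of the 7 windows held, on either strand, the Golgi stress element ACGTGGC (2.58% of promoters), CACGTG (7.15%), TGACGTCA (1.79%) or TGACGTGG (0.676%). The absence of these letters from a window says nothing about the binding of a factor.

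Fut11 (chr14:20694968-20701016, plus strand) was at 12.6, 12.8 and 13.3 CPM in the wild type and 13.5, 11.3 and 12.1 CPM in the knockout. The groups overlapped, and the log2 fold change was -0.07 (SE 0.14, 95% interval -0.39 to 0.26, edgeR adjusted p = 0.733), or 0.35 with total counts (-0.08 relative to the median of all genes tested, adjusted p = 0.0672, range over the alternatives 0.0672 to 0.987). Fut10 (chr8:31187331-31261738, plus strand) was at 0, 1.46 and 1.45 CPM in the wild type and 0.212, 0.498 and 0.566 CPM in the knockout. A single wild type library had no counts while the other two exceeded the knockout. The log2 fold change of -1.17 (SE 1.09, 95% interval -3.72 to 1.38) did not pass (edgeR adjusted p = 0.424), and without that library it was -1.77 with an adjusted p of 0.0448 (range over the alternatives 0.0346 to 0.955). That library, wild type 1, also had the lowest summed level of fibroblast and muscle markers, 148 CPM against 1071 and 2177 CPM in the other wild type libraries, and of parietal and chief cell markers, 130 CPM against 444 and 540 CPM. Fut9 was lowest in that library too. The part of these cells in the Fut9 and Fut10 values was not tested.

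The make-up of the family was compared as the percentage of its summed per-length level that each linkage class held in a library. The alpha-1,6 class, which is Fut8, held 36.1% ± 0.910 in the wild type and 17.6% ± 1.20 in the knockout (SD, n = 3 libraries), a difference of -18.5 percentage points. The alpha-1,2 class went from 43.5% ± 0.969 to 58.8% ± 1.70, a difference of 15.3 points. Pofut1 and Pofut2, together named the protein O-fucose class here, held 3.59% ± 0.611 and 10.4% ± 0.745, and the alpha-1,3 class 13.1% ± 0.886 and 8.51% ± 0.729. With the length of the longest transcript the alpha-1,3 shares were lower, 7.19% and 4.95%, a difference of -2.23 points in place of -4.55. In these 4 classes no library of one genotype reached the range of the other, at the smallest exact permutation p of 0.1, whereas the classes of Fut10 and Fut11 together overlapped (3.70% and 4.60%, exact permutation p = 0.2). Shares sum to the whole, so a larger share can come from a fall elsewhere. Fut2, which makes up nearly all of the alpha-1,2 class, did not itself pass the test under TMM scaling. The level of the whole family was 129 ± 3.56 in the wild type and 156 ± 11.9 in the knockout on the per-length scale, which is not TMM-scaled. On that scale Fut2, with a log2 fold change of 0.02 under TMM scaling, went from 56.0 to 91.7. The family sums therefore do not by themselves show a rise.

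**Figure D3:**
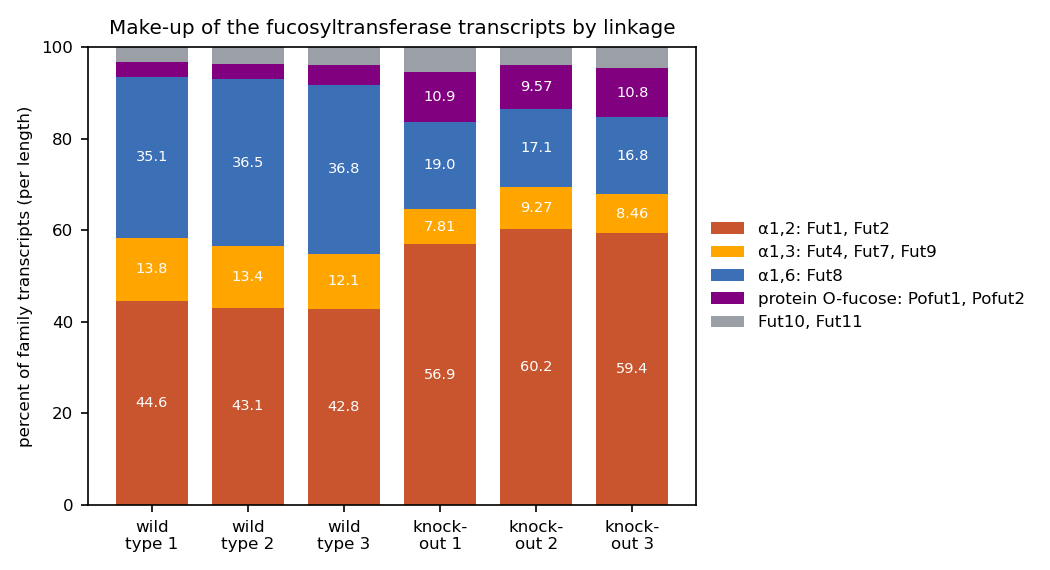
Stacked bars give, for each of the 6 libraries, the percentage of the family's summed per-length level held by each linkage class. Fut8, the alpha-1,6 class, takes 35.1% to 36.8% of the wild type bars and 16.8% to 19.0% of the knockout bars. The protein O-fucose class, here Pofut1 and Pofut2, takes 3.16% to 4.29% and 9.57% to 10.9%.

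Genes that supply, extend, carry or bind fucose, and genes linked to the fucosyltransferases in other ways, were examined in 9 lists of 64 genes. Some of these pathway genes do not handle fucose, such as those of sialyltransferases, N-glycan processing enzymes and the interleukin-22 receptor pathway. Of the 56 tested, 30 rose and 7 fell in the knockout, with a median log2 fold change of 0.69 against 0.02 for all genes tested. These counts stand against 19.3% higher and 19.2% lower among all genes, and with total-count scaling they were 39 and 4. The lists were chosen with earlier results of these data known, so the counts are not a test of the pathway.

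Of 6 genes for the synthesis and transport of GDP-fucose, 3 synthesis genes fell and 1 transporter gene rose. Gmds, which starts the synthesis of GDP-fucose from GDP-mannose, was at 550, 542 and 455 CPM in the wild type and 352, 331 and 348 CPM in the knockout (log2 fold change -0.59, SE 0.11, edgeR adjusted p = 0.00627). Gfus, which completes that route, went from 119, 116 and 100 CPM to 76.4, 64.3 and 71.1 CPM (log2 fold change -0.67, edgeR adjusted p = 0.00422). All knockout values of either gene were below all wild type values. The calls of Gmds and Gfus did not hold with total counts (-0.17 and -0.25, edgeR adjusted p = 0.234 and 0.0977), where they lay at -0.60 and -0.68 relative to the median of all genes tested, and that of Gmds did not hold with the trend on GC content removed (-0.26, adjusted p = 0.145). Fpgt, of the salvage route, fell by 0.90 (SE 0.13, edgeR adjusted p = 0.00232). Slc35c1, the Golgi GDP-fucose transporter, was at 146, 119 and 122 CPM in the wild type and 237, 243 and 237 CPM in the knockout, so that all knockout libraries were higher. It rose by 0.89 (SE 0.11, edgeR adjusted p = 0.00126). The salvage kinase gene Fcsk (0.55, adjusted p = 0.0629) and Slc35c2 (0.26, adjusted p = 0.307) did not pass, nor did the fucosidase genes Fuca1 (0.46, adjusted p = 0.0506) and Fuca2 (-0.31, adjusted p = 0.0644). Fuca1 is a borderline value, with adjusted p between 0.00313 and 0.0499 in 10 of its alternatives.

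**Figure D4:**
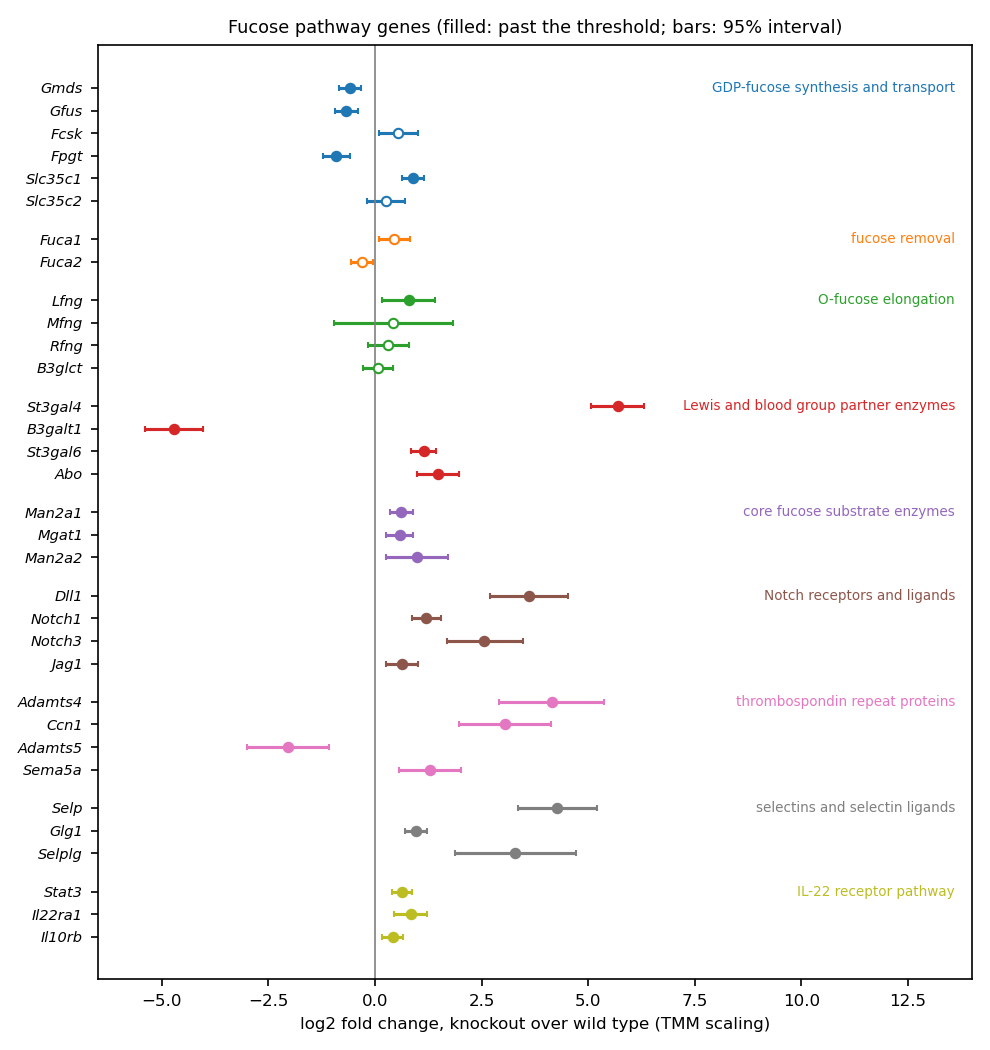
The plot gives log2 fold changes, knockout over wild type, with 95% intervals for the named genes of the 9 lists. Notch4, B3galt5 and B4galnt2 are not plotted. Colours mark the lists, and filled points are past the false discovery rate of 0.05. In the donor list Gmds, Gfus and Fpgt lie below 0 and Slc35c1 above, and the selectin list lies above 0; Sele is left out because it had no wild type counts.

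The genes that act with POFUT1 in Notch modification gave a mixed picture. Of the 4 enzymes that extend O-fucose, only Lfng passed, at 6.57, 3.93 and 5.97 CPM in the wild type and 7.47, 9.96 and 11 CPM in the knockout (log2 fold change 0.79, SE 0.26, edgeR adjusted p = 0.0486). That call is marginal and was lost in 8 of its alternatives, with adjusted p of 0.0514 to 0.205. Mfng, Rfng and B3glct, which extends the fucose added by POFUT2, gave 0.43, 0.31 and 0.07. Of 8 Notch receptors and ligands tested, 5 rose and 1, Notch4, fell (log2 fold change -0.71, SE 0.21, edgeR adjusted p = 0.0333). The fall of Notch4 did not hold with total counts (-0.29, edgeR adjusted p = 0.289). The ligand gene Dll1 was at 0.760, 0.955 and 1.04 CPM in the wild type and 17.5, 8.30 and 8.32 CPM in the knockout, the largest log2 fold change of the named Notch genes (3.62, SE 0.39, edgeR adjusted p = 7.73e-04). Notch3 rose by 2.57 and Notch1 by 1.20 (edgeR adjusted p = 0.00241 and 0.00118), and Jag1 by 0.63 (adjusted p = 0.0205). The Jag1 call did not hold without wild type library 3 or knockout library 2 (adjusted p = 0.0695 and 0.0771). Notch genes are also expressed in blood vessels, whose endothelial markers here were Pecam1, Cdh5, Kdr, Vwf and Emcn. These summed to 11.2 to 23.9 CPM in the wild type and 44.1 to 65.4 CPM in the knockout. In 4 of 5 every knockout library was higher, where 54.8% of all genes tested did not overlap between genotypes. Only 2 of the 5 passed the test. Cdh5 was at 0 in 1 wild type library. The part of endothelial cells in these values was not tested.

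Among 13 tested genes for proteins with thrombospondin repeats, which POFUT2 modifies, 5 rose and 1 fell. Adamts4, a secreted protease, was at 0.109, 0.225 and 0.232 CPM in the wild type and 4.84, 2.32 and 3.14 CPM in the knockout (log2 fold change 4.15, SE 0.53, edgeR adjusted p = 0.00133). Its relative Adamts5 went the other way, from 2.06, 3.03 and 2.96 CPM to 0.467, 0.789 and 0.697 CPM (log2 fold change -2.03, SE 0.41, edgeR adjusted p = 0.00800). The groups did not overlap for either protease gene. The matricellular gene Ccn1 rose by 3.06 (edgeR adjusted p = 0.00275) and the guidance gene Sema5a by 1.30 (adjusted p = 0.0161). The Sema5a call did not hold without wild type library 2 or knockout library 3 (adjusted p = 0.0502 and 0.0543).

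Of 5 genes for enzymes of N-glycan processing, listed beside Fut8, 3 rose and none fell. Man2a1, the Golgi mannosidase, went from 93.0, 94.2 and 81.1 CPM to 152, 127 and 135 CPM (log2 fold change 0.62, SE 0.11, edgeR adjusted p = 0.00533). Mgat1, which starts the complex N-glycan arm, rose by 0.58 (adjusted p = 0.0138) and Man2a2 by 0.99 (adjusted p = 0.0383). With the GC trend removed Mgat1 and Man2a2 no longer passed (edgeR adjusted p = 0.0808 and 0.160), and the Man2a2 call was lost in 8 alternatives in all.

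The enzymes that build Lewis and blood group structures together with the alpha-1,2 and alpha-1,3 members gave 7 higher and 2 lower genes of 10 tested. St3gal4, a sialyltransferase of sialyl-Lewis x, was at 1.09, 1.63 and 2.09 CPM in the wild type and 93.5, 64.9 and 90.4 CPM in the knockout (log2 fold change 5.69, SE 0.27, edgeR adjusted p = 8.62e-05). St3gal6, which has the same role, was at 35.4, 42.6 and 39.1 CPM and at 97.4, 78.6 and 81.6 CPM (log2 fold change 1.14, SE 0.12, edgeR adjusted p = 8.07e-04). Both sialyltransferases were higher in every knockout library, while Fut4 fell and Fut7 was near 0. B3galt1, which makes type 1 chains, fell from 15.8, 11.8 and 14.1 CPM to 0.424, 0.457 and 0.697 CPM (log2 fold change -4.71, SE 0.29, edgeR adjusted p = 1.41e-04). Abo, whose enzyme acts on the H antigen made by FUT2, rose from 7.98, 7.14 and 6.78 CPM to 26.1, 19.6 and 15.5 CPM (log2 fold change 1.48, SE 0.21, edgeR adjusted p = 0.00203).

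All 5 tested genes of selectins, the receptors for sialyl-Lewis x, and of their ligands rose, with a median log2 fold change of 4.28. Selp, P-selectin of endothelium and platelets, was at 0.271, 0.562 and 0.869 CPM in the wild type and 10, 11.6 and 11.7 CPM in the knockout (log2 fold change 4.28, SE 0.40, edgeR adjusted p = 5.48e-04). Sele, E-selectin, had 0 counts in the wild type and 16, 39 and 29 in the knockout, at least 21.2-fold higher against a floor of 3 counts over the wild type group (edgeR adjusted p = 0.00517). Selplg, the leukocyte ligand of P-selectin, rose by 3.29 (adjusted p = 0.00556), and Glg1, a Golgi protein and E-selectin ligand, by 0.97 (adjusted p = 9.69e-04). The leukocyte and endothelial marker sums given above were also higher in the knockout, and their part in these values was not tested.

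Interleukin-22 is known to induce Fut2 in intestinal epithelium through STAT3. The cytokine gene Il22 was at 0 in all libraries, and the 3 tested genes of its receptor pathway rose. Stat3 went from 66.2, 61.6 and 56.7 CPM to 98.2, 92.9 and 96.7 CPM (log2 fold change 0.64, SE 0.10, edgeR adjusted p = 0.00267), Il22ra1 rose by 0.84 (adjusted p = 0.00723) and Il10rb by 0.42 (adjusted p = 0.0214). Without single libraries the Il10rb adjusted p reached 0.0823 (without knockout library 2), with 0.0782 and 0.0684 without wild type libraries 2 and 3, and the Il22ra1 call did not hold with the GC trend removed (adjusted p = 0.0736).

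The genes whose profile lay nearest to each called member were found by the distance between log2 CPM values, centred on each gene's mean, over the 6 libraries. Nearest to Fut8 were Sytl2 (distance 0.141) and Rab27a (0.145), which encode partners in the docking of secretory granules, with log2 fold changes of -1.48 and -1.43. Nearest to Fut4 were Grhl1, an epithelial transcription factor gene (0.142), and Shank1 (0.144). Pofut1 lay nearest to Ext1, a heparan sulfate polymerase gene (0.0407), and Smarcal1 (0.0674). Pofut2 lay nearest to Iffo2 (0.192) and Sh3bp4 (0.241). With the libraries in 2 groups, such a distance mostly reflects an equal fold change between the genotypes.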

How the data were processed

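Bulk RNA-seq of mouse antral mucosa gave 3 wild type and 3 Muc6 knockout libraries. The table the authors deposited holds estimated counts, many of them not whole, with a column per library. The build was mm10, per the submitters' processing notes, and the aligner, counter, annotation and use of strand are not given in the sources read. Of 34866 identifiers, 284 were not matched to GENCODE M21, which supplied symbols, exon lengths and coordinates.

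Values were rounded to whole numbers before testing. Genes were filtered with filterByExpr (minimum count 10, total 15), scaled with TMM and tested with edgeR 4.0.16 in R 4.3.3 (robust quasi-likelihood fit, Benjamini-Hochberg adjustment over all genes tested, false discovery rate 0.05). Standard errors are the log2 fold change divided by the square root of F. Counting intervals cover counting error only. The steps were tested on simulated data. Chi-square per degree of freedom between replicates was 16.0 to 79.6, so none was a repeat of another, and no per-sample column was left out. Alternatives were other scalings, filters, DESeq2 1.42.0, limma-voom (limma 3.58.1), removal of a GC trend, a replicate block, gene length of the longest transcript, and leaving out libraries. The labels state no pairing by replicate number, and the block was not used in the reported fit.

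The text names all 10 members and every gene of the GDP-fucose, fucose removal and O-fucose elongation lists. It also names the 2 nearest genes to each called member. In each other list it names up to 4 genes with the smallest adjusted p past the threshold. Those lists are Lewis and blood group partner enzymes, N-glycan processing enzymes, Notch receptors and ligands, thrombospondin repeat proteins, selectins and their ligands, and the IL-22 receptor pathway. Marker genes stand beside results. Plagl2 and the other neighbour genes, Notch4, B3galt5 and B4galnt2, and the GC and CCAAT boxes were chosen after their values were seen. The members and lists were chosen with earlier results of these data known. In the marker lists, 2 of 4 tested tuft cell genes and 3 of 3 squamous forestomach genes were called higher. So were 4 of 7 leukocyte, 1 of 4 neutrophil and 2 of 5 endothelial genes. Called lower were 6 of 6 pit mucous, 4 of 7 enteroendocrine and 4 of 6 parietal and chief cell genes. The gland mucous and the intestinal list each had 4 higher and 1 lower of 6 tested. None of 7 fibroblast and muscle genes was called. Among all genes tested 19.3% were called higher and 19.2% lower.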

Additional observations from a re-analysis of the deposited data

How the results depend on the processing

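Fut4, Fut8, Pofut1 and Pofut2 kept their direction and their call in all 18 alternatives, with log2 fold changes of -1.41 to -0.76, -1.49 to -1.04, 0.54 to 1.11 and 1.13 to 1.84 and a highest adjusted p of 0.0158, 0.00286, 0.0264 and 0.00854. With the replicate block 2 members were higher and 2 lower, as without it, and of the pathway genes 29 and 6 (30 and 7 without it). Libraries were also correlated across genotypes after each gene's group mean of log2 CPM was subtracted. Same-numbered libraries then gave 0.25, 0.09 and 0.19. Those with unlike numbers gave -0.29, -0.25, -0.15, -0.07, 0.02 and 0.27, the last for wild type 3 with knockout 2. These values do not settle whether the numbers pair the libraries, and the numbers were not taken as pairs. Total-count scaling left 4 pathway genes lower, and it raised the share of higher calls among all genes from 50.1% to 83.9% (5718 higher and 1095 lower). Leaving out wild type 2 gave 1600 higher and 1742 lower genes, leaving out knockout 2 gave 1810 and 1721 (2699 and 2687 with all libraries), and leaving out 1 library at a time gave 21 to 30 higher and 5 to 6 lower pathway genes. Members that had not passed changed sign as follows: Fut2 was at -0.15 with the GC trend removed, with or without the replicate block, -0.02 without wild type 3 and -0.06 without knockout 2, Fut10 at 0.13 with limma-voom, and Fut11 at 0.35 with total counts. Among pathway genes that had not passed, Slc35c2 was at -0.10 with the GC trend removed and -0.11 with the block added, Rfng at -0.04 and -0.03, and Fuca2 at 0.11 with total counts; the cause was not tested. With the length of the longest transcript the differences in share were 18.0 points for alpha-1,2, -2.23 for alpha-1,3, -21.6 for alpha-1,6 and 5.27 for protein O-fucose, and without both libraries numbered 1 those of alpha-1,2 and alpha-1,6 were 16.8 and -19.7. For the 36 named pathway genes other than Notch4, 574 values kept direction and call, 47 lost the call, 20 gained it and 5 changed sign. The depth limits Fut1, Fut7, Fut9 and Fut10, where a library held few counts or none.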

Other observations

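Some enzymes that compete for or extend the substrates of the fucosyltransferases differed within the knockout group. B3galt5, which makes type 1 chains in the digestive tract, was at 180, 135 and 190 CPM in the wild type and at 3.95, 25.0 and 26.8 CPM in the knockout (log2 fold change -3.18, SE 0.73, edgeR adjusted p = 0.0223). B4galnt2, which makes the Sd(a) antigen of the intestine, was at 0.434, 0.899 and 0.232 CPM in the wild type and at 0.764, 21.9 and 34.1 CPM in the knockout (log2 fold change 5.16, SE 1.48, edgeR adjusted p = 0.0437). Knockout library 1 was thus the lowest of its group for either gene, and for B4galnt2 it lay inside the wild type range. Without it the log2 fold changes were -2.70 and 5.73 (edgeR adjusted p = 3.67e-04 and 5.85e-04), and the B3galt5 and B4galnt2 calls did not hold when any other single library was left out (adjusted p of 0.0510 to 0.0634 and 0.0772 to 0.137). The intestinal transcription factor gene Cdx2, which was not tested, was at 0.0849, 10.5 and 11.7 CPM in knockout libraries 1, 2 and 3. In the wild type it was at 0.217 to 0.348 CPM. Of 9 intestinal markers, 5 were above every wild type library, 3 overlapped, Cdx2 among them, and 1 was below. The last was Fabp2, at 679, 676 and 753 CPM in the wild type and 19.4, 86.9 and 201 CPM in the knockout. The 9 markers summed to 901 to 960 CPM in the wild type and to 387, 684 and 1061 CPM in the knockout. Among the fucosyltransferases, Fut2 was at 187, 230 and 206 CPM and Fut4 at 15.2, 24.0 and 21.0 CPM in knockout libraries 1, 2 and 3. Fut1 had 4, 7 and 19 counts there and Fut10 had 5, 12 and 13, which are few. Fut9 was highest in knockout library 1, while Pofut1 and Pofut2 were nearly equal in all 3. Some library is the lowest of its group for any gene. The share of all genes that were lowest in knockout library 1 was not examined.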
